A study of Homo sapiens with 4 samples.

Results

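Circular RNAs that joined 12 or more exons of a single gene were examined in 4 long-read libraries of the human breast cancer line MDA-MB-468. A circle was included when the deposited table typed it as exonic, placed it outside the mitochondrial genome, named 1 gene and 1 isoform with at least 12 exon blocks, and gave it at least 1 count over the 4 libraries. These criteria selected 14854 circles from 1603 host genes. They were drawn from 190152 circles with at least 1 count, of which 79377 were exonic circles of 1 gene and 1 isoform, from 6874 host genes. The same 79377 held 14699 circles of 1 exon, 22100 of 2 to 5 exons and 27724 of 6 to 11 exons.

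All 4 libraries came from a radioresistant derivative of the line that had received 50 Gy in fractions. The 2 control libraries (shCtrl) came from cells with a control short hairpin RNA, and the 2 knockdown libraries (shHNRNPL) from cells with a stable hairpin against HNRNPL. The labels call the 2 libraries of each group biological replicates, and the extraction notes name a single hairpin, so an effect of HNRNPL and one of that hairpin cannot be told apart. Unirradiated parental cells were not part of this comparison.

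A circular RNA forms by back-splicing, in which the donor site at the end of a downstream exon is joined to the acceptor site of an upstream exon. The exons in between are usually spliced together inside the circle, so a back-splice across a long stretch of a gene can give a circle with many exons. HNRNPL is a nuclear RNA-binding protein that recognises CA-rich RNA and regulates alternative splicing. Short reads see little more than the back-splice junction, whereas a read that runs around the whole circle shows which exons it holds.

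Total counts were 472428 and 556578 in the controls against 282737 and 390547 in the knockdowns, in replicate order, which is kept below. Levels are counts per 100000 counts of the library. A count of 0 allowed up to 3 counts, or 0.635 and 0.539 per 100000 in the controls against 1.06 and 0.768 in the knockdowns. Control replicate 1 stood apart: 70.9% of its counts lay in exonic circles, and the shares were 84.9%, 85.7% and 85.6% in the other libraries. Over the 317 long circles with at least 40 counts, log2 levels correlated at r = 0.764 between the controls and r = 0.869 between the knockdowns (across circles, which are not independent). No row named HNRNPL, so its knockdown rests on the labels. Of 9 epithelial marker genes 6 had circular counts, with summed levels of 86.6 and 65.6 in the controls against 45.3 and 37.1 in the knockdowns. Endothelial and blood markers were at 0, and of the mesenchymal markers ZEB1 alone had counts, 3 in knockdown replicate 2. GRHL2, an epithelial transcription factor, held 899 of the 1047 marker counts. Without it, a sum added after the values were seen, the levels were 15.5 and 5.03 against 7.43 and 6.66, and the groups overlapped. EPCAM was at 1.91 and 2.34 against 2.83 and 2.56 and ESRP1 at 0.212 and 1.08 against 1.41 and 2.05, so both were higher in the knockdowns. The part of these differences in the results below was not tested. In such bulk libraries, fewer cells of a type and less RNA per cell cannot be told apart.

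The deposited table lists, for each circle, the stretch of letters that the 2 ends of the circle have in common, over which the exact join cannot be placed. Such a stretch was given for 11364 of the 14854 long circles, and 6985 of these held AG. The short stretches AG (21.7% of long circles), G (17.7%) and AGG (8.93%) were the most frequent. No stretch was given for 23.5% of long circles, against 32.03% of shorter ones. By class the latter was 24.2% for 6 to 11 exons, 27.0% for 2 to 5 exons and 54.4% for 1 exon. Long circles were thus close to those of 6 to 11 exons. The intron before an exon ends in AG and the intron after it begins with GT, so longer stretches show splice-site letters directly. Stretches of at least 7 letters occurred in 86 long circles, of which 26 had at least 10 counts, and 19 of those 26 held AGGT. The stretches of some of them are printed because they show acceptor or donor letters of long circles. They are written 5′ to 3′ with AGGT, AGG or AG in capitals and with GRCh38.p14 coordinates. In BIRC6, the circle of 17 exons at chr2:32478635-32509994 (plus strand) carried tacAGGT, with 22 and 17 counts in the controls against 16 and 20 in the knockdowns. The BIRC6 circle of 20 exons at chr2:32439508-32477583 carried AGGTatg, with 10 and 18 counts against 10 and 9. Scaled by library totals, both knockdowns lay above both controls in the circle of 17 exons, and the groups overlapped in that of 20 exons. A circle of 12 exons of KIF18A, a mitotic kinesin, at chr11:28035387-28091513 (minus strand) carried aAGGTat, with 0 and 5 counts against 9 and 12. One of 12 exons of IARS2, the mitochondrial isoleucyl-tRNA synthetase, at chr1:220103447-220140289 (plus strand) carried tAGGTatg, with 7 and 12 counts against 0 and 4. In these the groups stood apart on few counts, higher in the knockdowns for KIF18A and lower for IARS2. A circle of 14 exons of IDE, the insulin-degrading enzyme, at chr10:92483255-92559215 (minus strand) carried ttttcAGG, without the donor letters, and had 10 counts in all. The table's splice motif was AG-GT, the usual acceptor and donor, for 92.2% of long circles, close to the 91.8% of circles of 6 to 11 exons. The motif AC-AT, that of a minor class of introns, was listed for 241 long circles (1.62%). An asterisk marked 238 of these and 4658 of the AG-GT motifs. Its meaning was not given in the sources used here. XPO4, an exportin, held an AC-AT circle of 14 exons without an asterisk, with 1 and 7 counts in the controls against 5 and 8 in the knockdowns.

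Circle numbers were lower at higher exon numbers. Circles of exactly 11 exons, just outside the set, numbered 3085 with 25162 counts, and circles of exactly 12 numbered 2539 with 20583 counts. Long circles had a median of 15 exons and a maximum of 75, in a USP34 circle. Those of 12 to 14 exons made up 43.3%, those of 15 to 19 34.8%, those of 20 to 29 18.6% and those of 30 or more 3.32%. The 14 circles of 50 or more exons came from ATM, a DNA damage kinase, DNAH5, an axonemal dynein heavy chain, KNTC1, a kinetochore protein, SYNE2, a giant nuclear envelope linker, and USP34, a deubiquitinating enzyme.

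**Figure D1:**
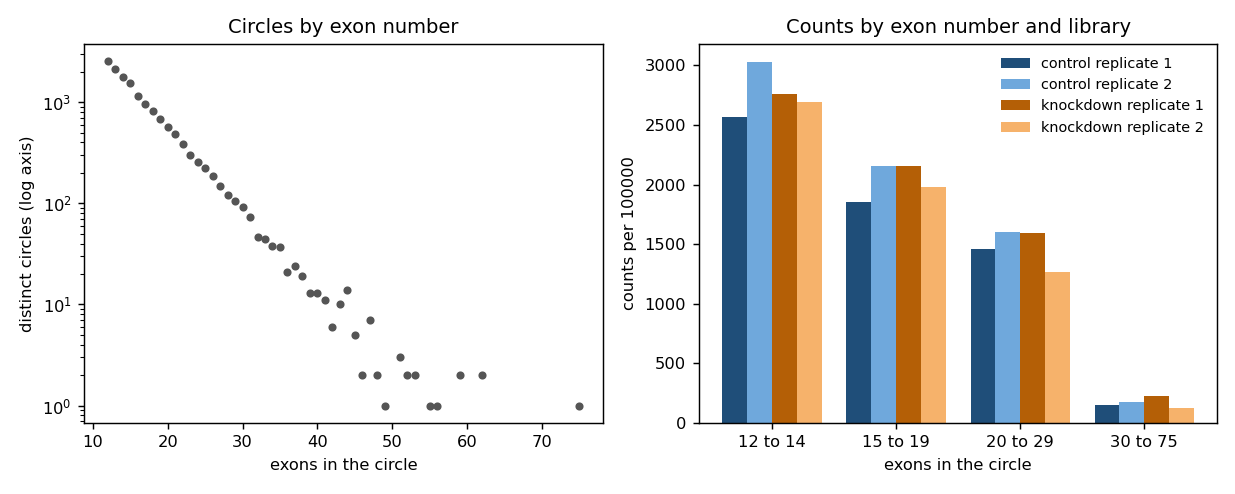
Left, the number of distinct circles (log axis) against the number of exons in the circle, from 12 to 75. Right, counts per 100000 in each of the 4 libraries by class of exon number. Every class was found in each library, and the class of 30 to 75 exons held 148 and 177 per 100000 in the controls against 228 and 124 in the knockdowns.

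In every long circle the exon blocks summed to the length stated in the table. That length had a median of 2185 nt and ran from 787 to 10691 nt. It spanned a median of 42124.5 nt of the genome, against a length of 1140 nt and a span of 21196.5 nt for circles of 6 to 11 exons. The exons themselves were of the usual size, with a median of 125 nt, the same as in circles of 6 to 11 exons. The first exon of a long circle had a median of 112 nt, the last one 133 nt and the inner ones 125 nt. Exons over 500 nt were 7.63% of last exons, 2.07% of first exons and 1.28% of inner ones. The circle length was a multiple of 3 in 34.5% of long circles and in 35.3% of those of 6 to 11 exons.

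Like shorter circles, long circles were found mainly as rare species. The median was 3 counts in circles of 12 or more, of 6 to 11 and of 2 to 5 exons. It was 2 counts in circles of 1 exon. At least 10 counts were reached by 12.4% of long circles, against 14.3%, 13.2% and 6.08% in the classes of 6 to 11, 2 to 5 and 1 exon. Of the 14854, 1919 had a single count, 13019 had fewer than 10, and 317 had at least 40. They were seen in 1 library in 6761 cases, in 2 libraries in 4421, in 3 in 2017 and in all 4 in 1655. All but 5 came from protein-coding genes, and the other 5 from the pseudogene DPY19L1P1. Host genes held a median of 4 long circles each. There were 411 hosts with 1 long circle and 34 with 50 or more, and 82 hosts held 50% of the counts. The hosts with the most long circles were USP34 with 220, BIRC6, an inhibitor of apoptosis with ubiquitin ligase activity, with 180, SYNE2 with 143, ATM with 123 and SMCHD1, a chromatin protein related to the SMC family, with 117.

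Host genes of long circles spanned more of the genome than other hosts, given here as a description. By the RefSeq gene table of GRCh38.p14, in which 14841 of the 14854 circles had their host symbol, the median host gene was 90846 nt long. Hosts of shorter circles alone had a median of 42655 nt over 5118 genes matched. A long circle covered a median of 39.2% of its gene, with 33.5% of the gene before it and 17.8% after it. Circles that covered at least 75% of their gene numbered 1529. For 71 circles the 5′ end coincided with the annotated start of the gene.

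The ends of long circles were often used more than once. The 5′ end was shared with another long circle for 56.0% of them and the 3′ end for 55.3%. Shorter circles ended at the same 5′ site for 59.8% of long circles, which held 81.4% of the counts, and at the same 3′ site for 58.0%, which held 77.4%. Both ends were also ends of shorter circles for 42.5% of long circles, and neither end was for 24.8%, which held 9.90% of the counts. The most widely shared 5′ end lay in ANAPC1, a subunit of the anaphase-promoting complex, where 20 long circles of 13 to 37 exons began. The most widely shared 3′ end lay in USP34, where 21 long circles of 12 to 59 exons ended.

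Shared ends were of different kinds. In DOCK1, a guanine nucleotide exchange factor for RAC that acts in cell migration, 13 long circles began at chromosome 10 position 126970702 (GRCh38.p14, plus strand). They held 7162 counts, and 78.6% of these lay in the longest of them, of 26 exons. Its share of the counts at that site was 80.9% and 75.1% in the controls against 81.6% and 78.9% in the knockdowns. In CEP192, a scaffold protein of the centrosome, 14 circles began at chromosome 18 position 12999421 (plus strand), and the circle of 29 exons held 75.8% and 74.3% of their counts in the controls against 84.5% and 86.8% in the knockdowns. The groups did not overlap in that CEP192 share. In ATM, 16 circles of 12 to 62 exons began at chromosome 11 position 108227595 (plus strand), and the most abundant of them, of 16 exons, held 46.5% and 55.3% in the controls against 40.0% and 68.4% in the knockdowns. That ATM circle had 20 and 172 counts in the controls against 102 and 134 in the knockdowns.

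**Figure D2:**
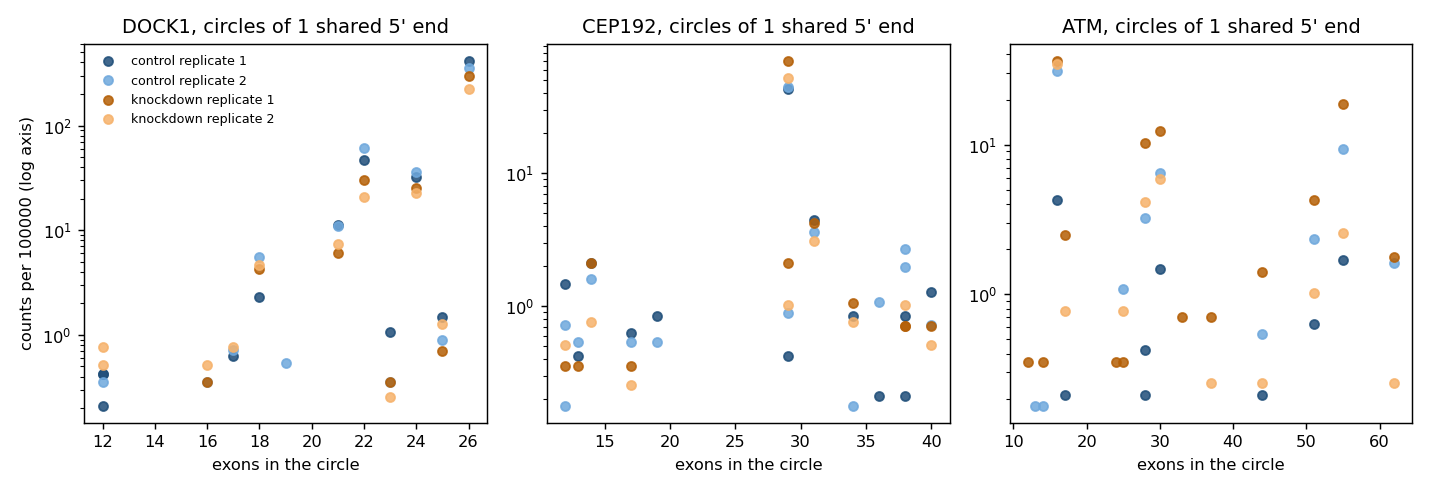
Level of each long circle that begins at the most used 5′ end of DOCK1, CEP192 and ATM, in counts per 100000 (log axis), against its number of exons. Each point is 1 circle in 1 library, coloured by library, and circles at 0 are not drawn. In DOCK1 the circle of 26 exons and in CEP192 that of 29 exons stood above the others, whereas in ATM the circle of 16 exons led and that of 55 exons followed in 3 of 4 libraries.

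The most abundant long circle came from DOCK1. It joined 26 exons in 2738 nt and spanned chromosome 10 from 126970702 to 127127764, or 28.7% of the gene. It had 1944 and 1964 counts in the controls against 846 and 874 in the knockdowns, or 411 and 353 against 299 and 224 per 100000. The controls were the higher pair, and the ratio of means was 0.684. The difference did not pass edgeR's quasi-likelihood test with Benjamini-Hochberg adjustment (log2 fold change -0.64 ± 0.37 SE, adjusted p = 0.430). A further DOCK1 circle of 22 exons, with the same start, was at 46.8 and 61.4 per 100000 in the controls against 30.4 and 21.0 in the knockdowns. Long circles of DOCK1 together took 0.515% and 0.474% of all counts in the controls against 0.370% and 0.285% in the knockdowns.

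The other abundant long circles were lower by a wide margin. SLC4A7, a sodium bicarbonate cotransporter, gave a circle of 17 exons at 54.2 and 69.2 per 100000 in the controls against 47.4 and 39.4 in the knockdowns. The CEP192 circle of 29 exons, 5620 nt long, was at 43.2 and 44.2 against 69.3 and 52.0, and there both knockdowns lay above both controls. RABGAP1, a GTPase-activating protein for RAB proteins, gave a circle of 12 exons at 44.7 and 50.8 against 48.1 and 45.1, and its groups overlapped. ATF7IP, a cofactor of histone H3 lysine 9 methylation, gave one of 12 exons at 28.999 and 39.9 against 56.9 and 55.6, without overlap. PICALM, a clathrin assembly protein, gave one of 12 exons at 9.31 and 34.3 against 54.5 and 55.8. The PICALM ratio of means was 2.53. Against control replicate 2 alone it was 1.61 and against control replicate 1 alone 5.92. RNPC3, a protein of the minor spliceosome, EPS15, an endocytic adaptor, and CENPI, a centromere protein, completed the 10, and their groups overlapped. RNPC3 was at 27.1 and 56.6 against 40.7 and 54.0, EPS15 at 30.1 and 56.1 against 31.1 and 34.6, and CENPI at 26.5 and 36.3 against 35.4 and 41.5. None of the 10 passed the test.

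**Figure D3:**
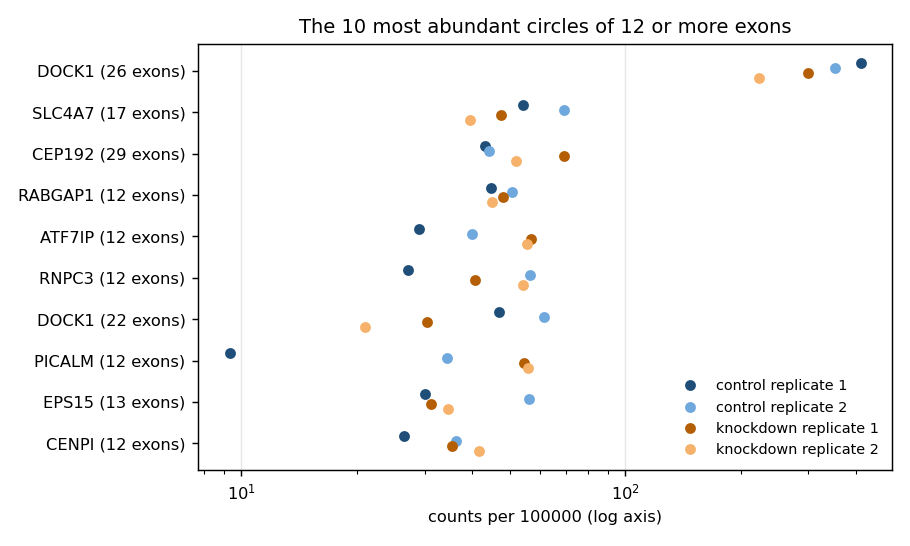
Counts per 100000 (log axis) of the 10 most abundant circles of 12 or more exons, 1 point per library. The DOCK1 circle of 26 exons lay between 224 and 411, above every other circle, and control replicate 1 was the lowest library for CEP192, RABGAP1, ATF7IP, RNPC3, PICALM, EPS15 and CENPI.

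The 10 most abundant long circles held 12.4% and 11.7% of the counts of all long circles in the controls against 10.3% and 9.81% in the knockdowns. Group means were 12.02% ± 0.470 (SD, n = 2) and 10.04% ± 0.329 (SD, n = 2). The groups did not overlap (exact two-sided permutation test, p = 0.333, the smallest that 2 against 2 allows). The 10 were chosen on their level over all 4 libraries. The DOCK1 circle of 26 exons alone held 6.83% and 5.07% against 4.44% and 3.69%. The other 9 held 5.53% and 6.62% against 5.84% and 6.12%, a sum added after the values were seen, and there the groups overlapped.

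Among circles with at least 10 counts, those with the most exons came from ATM, USP34 and VPS8. ATM circles of 62, 55 and 51 exons began at the same site, and the one of 62 covered 94.4% of the gene in 9199 nt. It had 0 and 9 counts in the controls against 5 and 1 in the knockdowns. The one of 55 exons had 8 and 52 counts against 53 and 10, so the libraries of each group differed more than the groups. The one of 51 exons had 3 and 13 against 12 and 4. The USP34 circle of 43 exons had 2 and 6 counts against 1 and 1. That of VPS8, a subunit of the endosomal CORVET tethering complex, also of 43 exons, had 2 and 5 against 5 and 3. None of these 5 passed the test, with adjusted p between 0.648 and 0.939 (edgeR's quasi-likelihood test, Benjamini-Hochberg adjustment).

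The first comparison asked whether long circles as a class took a different part of the circular RNA after HNRNPL knockdown. They held 6.03% and 6.97% of all counts in the controls against 6.74% and 6.07% in the knockdowns. Group averages were 6.50% ± 0.665 (SD, n = 2) and 6.40% ± 0.479 (SD, n = 2), and they differed by less than the spread between replicates (exact two-sided permutation test, p = 1). At an equal depth of 282737 counts, 6221 and 5737 distinct long circles were expected in the controls against 6031 and 5736 in the knockdowns, with a ratio of means of 0.984 (exact permutation test, p = 0.667). The count-weighted median length was 2206 and 2147 nt in the controls against 2284 and 2174 nt in the knockdowns (exact permutation test, p = 0.667). The count-weighted median exon number was 15 in every library. Circles of 6 to 11 exons took 12.03% and 15.1% of all counts in the controls against 14.1% and 14.6% in the knockdowns.

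The comparison of single circles between knockdown and control used 1835 long circles with at least 10 counts (12.4% of them), fitted with all 21576 circles of that depth. No long circle reached the threshold of 0.05 after Benjamini-Hochberg adjustment of edgeR's quasi-likelihood p-values, and the lowest adjusted p was 0.0761. Over all circles fitted, 0.0% passed. At an unadjusted p under 0.05, 120 long circles were higher and 43 lower in the knockdowns (6.54% and 2.34%), below the 9.42% and 4.0% of all circles fitted. The median log2 fold change was -0.17 for long circles and -0.39 for all circles, which became -0.30 and -0.51 with scaling by library totals. These medians depended on the filter, and were 0.099 and 0.014 with at least 5 counts in 2 libraries. With at least 40 counts they were 0.107 and -0.038. DESeq2 called 52 long circles (2.83% of those tested), against 5.03% of all circles. Without control replicate 1 edgeR called 264 (20% of all circles were called) and without control replicate 2 it called 311 (28.8%). Without either knockdown library it called 0. Among other settings, 70 of 934 long circles (7.49%) passed with at least 5 counts in 2 libraries, against 12% of all circles. With at least 40 counts 23 passed (7.26% against 12.5%), and 71 with the replicate number as a block (3.87% against 7.66%). With exonic circles fitted alone 19 passed (1.04% against 2.79%), and without a filter 14 did (0.0943% against 0.248%).

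By level alone, 91 of the 317 long circles with at least 40 counts were higher in both knockdowns than in both controls and 69 were lower. These shares of 28.7% and 21.8% stood beside 29.7% and 28.9% over all circles of that depth. With at least 10 counts, 425 of 1835 were higher and 407 lower, beside 23.2% and 22.9% of all. At least 4-fold apart as well were 26 higher and 5 lower long circles of the 317, beside 12.2% and 3.16% of all circles of that depth. Among the 1835 these numbers were 197 and 160, beside 11.8% and 8.15%.

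Of the 10 long circles with the smallest p in the higher direction, none passed the adjustment (adjusted p 0.0761 to 0.104, edgeR's quasi-likelihood test, Benjamini-Hochberg). DNAH14, a dynein heavy chain gene, led with a circle of 16 exons (chromosome 1, 224952670 to 225051795). It had 1 and 3 counts in the controls against 48 and 99 in the knockdowns, or 0.212 and 0.539 against 16.98 and 25.3 per 100000. The ratio of summed counts scaled by library totals was 56.2 (95% exact counting interval 21.5 to 209), and the fitted log2 fold change was 5.69 ± 0.59 SE. Counting intervals cover counting error only, since the amplified reads carry no molecular identifiers. CCDC18, a coiled-coil protein gene, gave a circle of 12 exons with 4 and 6 counts against 30 and 46. SMARCAD1, a chromatin remodeler, gave one of 14 exons with 2 and 7 against 26 and 47. EXOC6, a subunit of the exocyst that tethers vesicles to the plasma membrane, gave one of 16 exons with 3 and 6 against 21 and 37.

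The other 6 had at most 5 counts in either control library. NCKAP1, a subunit of the WAVE complex of actin assembly, had 1 and 1 counts in its circle of 16 exons against 15 and 17. SMCHD1 had 1 and 1 against 11 and 25 in a circle of 12 exons. VPS13A, a lipid transfer protein at membrane contacts, was there with circles of 13 and 12 exons that overlap in the gene. The former had 2 and 2 counts against 14 and 29, and the latter 0 and 0 against 9 and 22, at least 7.51-fold higher against a floor of 3 counts per control library. VPS54, a subunit of the GARP complex of endosome to Golgi transport, had 2 and 5 against 16 and 23 in a circle of 21 exons. XPO1, the main nuclear export receptor, had 2 and 3 against 12 and 25 in a circle of 23 exons that covered 86.8% of the gene.

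The 10 long circles with the smallest p in the lower direction had adjusted p between 0.111 and 0.243 (edgeR's quasi-likelihood test, Benjamini-Hochberg), and none passed. The best measured came from UBA2, a subunit of the SUMO-activating enzyme. Its circles of 13 and 14 exons began at the same site (chromosome 19, 34431861). The circle of 13 exons had 230 and 272 counts in the controls against 43 and 54 in the knockdowns, or 48.7 and 48.9 against 15.2 and 13.8 per 100000. That of 14 exons was at 44.9 and 43.5 against 16.98 and 13.8 per 100000. The fitted log2 fold changes were -1.81 ± 0.36 SE and -1.59 ± 0.37 SE. In both UBA2 circles the control libraries lay close together and the knockdowns lay lower.

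ORC3, a subunit of the origin recognition complex, gave a circle of 12 exons with 14 and 25 counts in the controls against 0 and 0 in the knockdowns, at least 4.08-fold lower against a floor of 3 counts per library. ATRX, a chromatin remodeler, gave one of 16 exons with 6 and 17 against 0 and 0, at least 2.36-fold lower. ACSL4, a ligase that activates long polyunsaturated fatty acids, had 23 and 42 against 3 and 4 in a circle of 14 exons. BTAF1, an ATPase that removes TBP from DNA, had circles of 21 exons (12 and 30 against 1 and 2) and 30 exons (87 and 142 against 30 and 37). INTS8, a subunit of the Integrator complex, had 13 and 13 against 1 and 1. GFPT1, the first enzyme of the hexosamine pathway, had 15 and 22 against 3 and 3. The DOCK1 circle of 22 exons was the last of the 10, with a log2 fold change of -1.12 ± 0.35 SE.

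**Figure D4:**
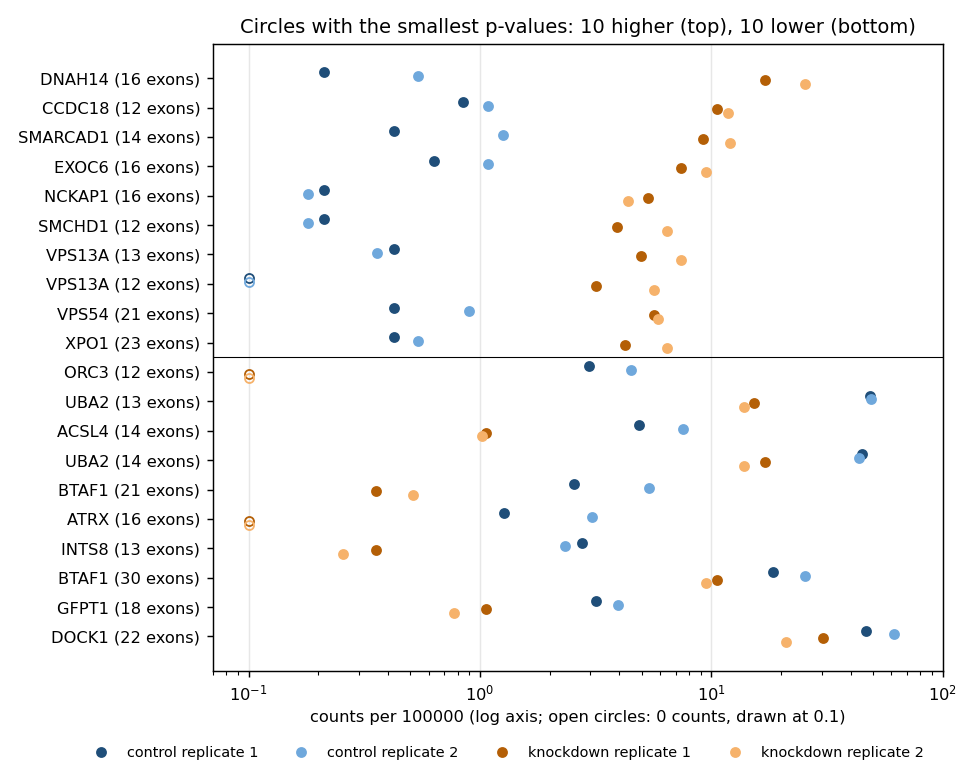
Counts per 100000 (log axis) of the 10 higher and 10 lower long circles with the smallest p-values and no overlap between groups, 1 point per library, with open circles for 0 counts. None passed an adjusted p of 0.05. The circles were chosen for the separation that the plot shows.

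Counts were then summed over the long circles of each host. Of 953 hosts with at least 10 such counts, 4 passed an adjusted p of 0.05 and all 4 were higher in the knockdowns (edgeR's quasi-likelihood test, Benjamini-Hochberg over 7323 sums of all exon classes). Over those sums 0.737% passed in the higher direction and 0.0137% in the lower. Sums of long circles rose in PPP4R3B, a regulatory subunit of protein phosphatase 4, from 10 and 17 counts to 45 and 79 (2.12 and 3.05 against 15.9 and 20.2 per 100000, log2 fold change 2.90 ± 0.43 SE, adjusted p = 0.0373). They rose in CEP290, a protein of the ciliary transition zone, from 1 and 3 to 25 and 31 counts (adjusted p = 0.0373), with a ratio of 21.4 (95% exact counting interval 7.91 to 81.3). In EXOC6 they rose from 10 and 23 to 60 and 80 counts (log2 fold change 2.83 ± 0.44 SE, adjusted p = 0.0437). In SWT1, an endoribonuclease gene, they rose from 4 and 7 to 27 and 40 counts (log2 fold change 3.30 ± 0.52 SE, adjusted p = 0.0461).

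None of these 4 passed with scaling by library totals, where their adjusted p lay between 0.0533 and 0.0671, or without either knockdown library (0.451% and 0.0% of all sums passed there). The count was also 4 with DESeq2's size factors (0.71% of all sums) and 1, CEP290, with the newer dispersion method (0.546%). It was 19 with DESeq2 (2.44%), 20 with the replicate block (3.1%), 36 when no sum was filtered out (2.79%), 12 when 5 counts in 2 libraries were required (2.7%) and 14 when 40 in all were (3.92%). Without control replicate 1 it was 151 (19.2%), and without control replicate 2 it was 264 (29.2%). Shorter circles of the same hosts were also more abundant in the knockdowns, at 2.54 and 7.19 against 33.2 and 34.6 per 100000 in PPP4R3B, 1.06 and 2.16 against 25.5 and 33.8 in EXOC6, and 1.48 and 3.05 against 30.4 and 25.9 in SWT1. CEP290 had 0 and 0 shorter counts in the controls against 4 and 16 in the knockdowns. WASHC4, a subunit of the WASH complex on endosomes, was next with 10 and 17 against 40 and 58 counts (adjusted p = 0.0528).

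At an unadjusted p under 0.05, 71 host sums were higher and 48 lower, against 8.94% and 6.43% over all classes. With scaling by library totals the balance turned, with 51 higher and 85 lower, against 7.65% and 9.31% over all classes. The lower hosts with the smallest p did not pass, and those given here had adjusted p between 0.0956 and 0.156 (edgeR's quasi-likelihood test, Benjamini-Hochberg). ACSL4 had 51 and 84 counts in the controls against 8 and 11 in the knockdowns. UBA2 had 617 and 718 against 131 and 177, or 131 and 129 against 46.3 and 45.3 per 100000. INTS2, another Integrator subunit, had 16 and 21 against 1 and 1. TFRC, the transferrin receptor, had 55 and 62 against 10 and 14.

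The third comparison asked whether long circles moved apart from the shorter circles of their own host. It used 932 hosts with at least 10 counts in each class. Summed over them, long circles took 29.7% and 28.6% of the host counts in the controls against 26.8% and 24.4% in the knockdowns. The group means came to 29.1% ± 0.820 (SD, n = 2) and 25.6% ± 1.68 (SD, n = 2), and the groups did not overlap (exact two-sided permutation test, p = 0.333, the smallest possible). The median host gave 32.8% and 28.5% against 27.8% and 24.2%. Over all exonic circles of 1 gene and 1 isoform, the long share was 15.9% and 16.9% against 16.2% and 14.6%. Long counts per count of 6 to 11 exons were 0.501 and 0.462 against 0.477 and 0.416. The groups overlapped in both (exact permutation tests, p = 0.667 each). Circles of 2 to 5 exons took 11.3% and 12.3% of all counts against 13.4% and 13.05%, without overlap. Long circles were not tested against circles of 6 to 11 exons within hosts. The long share per host was lower in both knockdowns than in both controls in 284 hosts (30.5% of those tested). It was higher in both in 118 (12.7%). Compared with control replicate 2 alone the numbers were 387 and 281, and with control replicate 1 alone 468 and 236.

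No host passed the test of the difference itself (edgeR's diffSpliceDGE F test, Benjamini-Hochberg, lowest adjusted p = 0.308), which is 0.0% of the 932. At an unadjusted p under 0.05, long circles were lower relative to shorter ones in 80 hosts and higher in 11 (8.58% and 1.18%). The median log2 difference was -0.26. Without control replicate 1, 54 hosts passed (46 lower, 8 higher), and without control replicate 2, 80 passed (72 lower, 8 higher). Without either knockdown library, 0 passed.

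**Figure D5:**
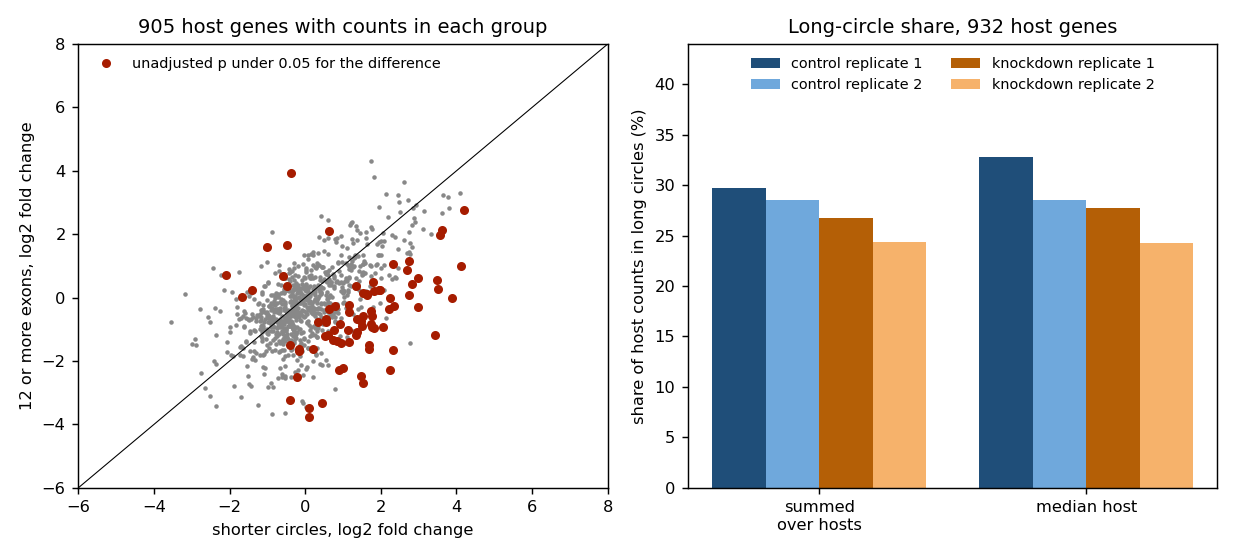
Left, log2 fold change (knockdown over control) of the summed long circles of a host against that of its shorter circles, for the 905 hosts with counts of both classes in both groups, with a line of equality and hosts at an unadjusted p under 0.05 for the difference in red. Right, the share of host counts in long circles in each library, summed over hosts and for the median host. On the left 552 of the 905 points lay below the line, and on the right both knockdown libraries lay below both controls.

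In the 5 hosts with the smallest p for a lower long share, the shorter circles were higher in both knockdowns than in both controls. Their long circles were lower in both knockdowns in RUFY2 and FAM135A and overlapped between groups in ARAP2, GSAP and ATRX. In ARAP2, a phosphoinositide-dependent ARF GTPase-activating protein, the long share was 55.8% and 52.7% in the controls against 12% and 9.48% in the knockdowns. Its long circles were at 6.14 and 14.01 against 8.49 and 7.43 per 100000, and its shorter ones at 4.87 and 12.6 against 62.2 and 70.9. In GSAP, the gamma-secretase activating protein, the share was 81.0% and 86.8% against 32.6% and 38.7%. ATRX gave 49.1% and 28.4% against 7.29% and 9.22%. RUFY2, an effector of RAB proteins on endosomes, gave 76.4% and 59.3% against 20.9% and 24.4%. FAM135A gave 66.7% and 40.9% against 4.17% and 3.08%, on 19 long counts in all. The adjusted p of these 5 lay between 0.308 and 0.324 (edgeR's F test, Benjamini-Hochberg).

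In the other direction, ATF7IP was the host with the most counts among the 5 smallest p. Its long share was 17.7% and 13.6% in the controls against 29.2% and 31.2% in the knockdowns. Its long counts were 145 and 234 against 163 and 219, or 30.7 and 42.0 against 57.7 and 56.1 per 100000. Its shorter circles were at 142 and 267 against 140 and 124 per 100000. TXNRD3, a thioredoxin reductase gene, gave 55.0% and 55.6% against 88.2% and 91.7%. DPY19L4 had 0 and 0 long counts in the controls against 5 and 9 in the knockdowns. KIAA0586, a centrosomal protein gene needed for cilia, had 1 and 0 against 5 and 8. None passed, with adjusted p between 0.335 and 0.353 (edgeR's F test, Benjamini-Hochberg).

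Host sums were also read by gene family and complex. The median log2 fold change over all 953 hosts tested was -0.26, with 398 above 0 and 555 below, and it was -0.46 with scaling by library totals. In each family below, all hosts with long circles are given and those with at least 10 counts were tested. Only CEP290 and EXOC6 passed in any family. Of 34 genes of centrosome and cilium 21 held long circles. Among 16 tested, 12 were above 0 and 4 below, with a median of 0.60. That median was 0.41 with scaling by library totals, 0.21 without control replicate 1, 0.33 without knockdown replicate 1 and 1.19 without control replicate 2. Besides CEP290 the most abundant were CEP192 (108 and 113 per 100000 in the controls, 169 and 120 in the knockdowns), PCM1, the centriolar satellite scaffold (29.6 and 52.8 against 63.0 and 47.1), and CEP350 (18.6 and 26.8 against 24.1 and 20.2).

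Of 21 genes of cohesin, condensin and SMC proteins, which hold and fold chromosomes, 17 held long circles. Of 13 tested, 9 were above 0 and 4 below, with a median of 0.91 that ranged from 0.34 without control replicate 1 to 2.31 without control replicate 2. SMCHD1 was at 11.01 and 17.8 per 100000 in the controls against 62.6 and 67.9 in the knockdowns (log2 fold change 2.29 ± 0.39 SE, adjusted p = 0.0573, edgeR's quasi-likelihood test, Benjamini-Hochberg). PDS5A, a cohesin regulator, was at 8.26 and 42.6 against 43.5 and 44.04, where control replicate 2 lay with the knockdowns. SMC6 was at 2.96 and 9.70 against 13.1 and 13.3. WAPL, which releases cohesin, went the other way at 7.20 and 9.88 against 2.83 and 2.56.

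Of 25 kinetochore, spindle and mitosis genes 22 held long circles, with 13 above 0 and 8 below among 21 tested and a median of 0.39. It was 0.72 without control replicate 1, 0.77 without control replicate 2 and 0.19 with scaling by library totals. KIF20B, a mitotic kinesin, was at 6.14 and 9.70 per 100000 in the controls against 32.9 and 36.4 in the knockdowns (adjusted p = 0.0597, edgeR's quasi-likelihood test, Benjamini-Hochberg). ANLN, an actin-binding protein of the cleavage furrow, was at 12.9 and 22.3 against 22.6 and 13.1, and ANAPC1 at 17.8 and 12.04 against 16.3 and 12.5. Of 14 bridge-like lipid transfer genes 8 held long circles, with 4 above 0 and 2 below among 6 tested and a median of 0.88 (0.50 without knockdown replicate 1, 1.21 without control replicate 2). VPS13A was at 9.10 and 15.1 against 38.2 and 42.5, VPS13C at 14.2 and 18.1 against 28.6 and 37.4, and BLTP1 at 7.62 and 12.4 against 19.5 and 9.22. Dynein heavy chain genes had 6 hosts of 15 with 3 above 0 and 2 below among 5 tested (median 0.48, or 0.90 without control replicate 1 and 0.27 with scaling by library totals). DNAH14 was at 23.7 and 44.9 against 61.2 and 85.5, while DNAH11 and DYNC2H1 stayed under 4 per 100000 in every library.

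Genes of DNA damage signalling and repair are of interest in cells selected by radiation. Of 35, 27 held long circles, 567 in number and 4.50% of all long-circle counts. Of 21 tested, 10 were above 0 and 11 below, with a median of -0.07 (0.20 without control replicate 1, 0.09 without knockdown replicate 2, -0.27 with scaling by library totals), and none passed. ATM was at 41.3 and 129 per 100000 in the controls against 162 and 110 in the knockdowns, ATR, its partner kinase, at 50.2 and 74.0 against 79.6 and 53.5, and REV1, a translesion polymerase, at 31.3 and 27.3 against 28.3 and 23.8. All 3 overlapped between groups. RIF1, which limits DNA end resection, was at 13.3 and 13.8 against 27.2 and 20.7, without overlap.

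Families with a median below that of all hosts were extracellular matrix and adhesion, splicing factors and HECT ubiquitin ligases. Of 33 matrix and adhesion genes 11 held long circles, and all 5 tested were below 0 (median -0.70, or -1.27 without knockdown replicate 1). ITGB1 was at 21.0 and 13.1 per 100000 against 11.7 and 12.3, ITGAV at 12.1 and 9.70 against 4.24 and 4.10, and ITGA6 at 5.08 and 5.75 against 2.48 and 3.59; all 3 encode integrin subunits. Of 37 genes of the spliceosome and splicing factors 17 held long circles, with 3 above 0 and 5 below among 8 tested (median -1.05, or -0.16 without control replicate 1). DHX9, an RNA helicase, was at 16.9 and 10.96 against 5.66 and 4.86 and U2SURP at 6.35 and 10.1 against 10.96 and 10.5. Of 25 HECT ligases 18 held long circles, with 5 above 0 and 8 below among 13 tested (median -0.61, or -0.09 without control replicate 1). WWP1 was at 43.4 and 55.9 against 30.4 and 29.7 and HUWE1 at 12.1 and 7.73 against 3.18 and 5.89.

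The remaining families had medians near 0. Chromatin remodelers and modifiers had 29 hosts of 43, with 11 above 0 and 11 below among 22 tested (median -0.04). Their median ranged from -0.37 without knockdown replicate 1 to 0.17 without control replicate 1. Their most abundant hosts were KMT2E (10.6 and 19.8 per 100000 against 5.66 and 8.96), KMT2C (15.7 and 10.4 against 10.96 and 8.96) and PBRM1 (8.04 and 13.1 against 7.43 and 10.5). Karyopherins and nuclear pore genes had 23 hosts of 28, with 8 above 0 and 11 below among 19 tested (median -0.06, or 0.15 without control replicate 1). Within it CSE1L, the exporter of importin alpha, was at 14.4 and 39.3 against 65.8 and 63.0, XPO1 at 4.45 and 19.2 against 53.4 and 55.6, and XPOT, the tRNA exporter, at 12.7 and 29.3 against 18.4 and 18.7. Cytoskeletal linkers and spectrins had 18 hosts of 28, with 8 above 0 and 7 below among 15 tested (median 0.12, or -0.08 with scaling by library totals and -0.23 without knockdown replicate 1). SYNE2 was at 29.8 and 30.4 against 40.0 and 23.3, MYO9A at 12.3 and 11.1 against 13.8 and 9.99, and DST at 9.95 and 10.2 against 14.9 and 9.99.

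Vesicle tethers and membrane traffic genes had 29 hosts of 46 and 498 long circles. Of 24 tested, 13 were above 0 and 11 below (median 0.13, or -0.07 with scaling by library totals and 0.37 without control replicate 2). Besides EXOC6, which passed, PICALM was at 28.2 and 71.9 per 100000 in the controls against 87.7 and 90.9 in the knockdowns, LRBA, a vesicle trafficking protein of the BEACH family, at 31.8 and 42.6 against 63.3 and 48.4, and VPS8 at 35.8 and 44.6 against 36.1 and 35.6.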

How the data were processed

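Circular RNA of 4 libraries (2 control, 2 HNRNPL knockdown, grouped by the sample titles) was copied with Induro reverse transcriptase, amplified with phi29 polymerase and read on nanopores, per the labels' protocols. The authors deposited raw counts per back-splice position, called with CIRI-long per the file's columns. GRCh38.p14 and DESeq2 are named in the submitters' processing notes. The aligner, filters and versions are not given in the sources used here. A deposited table of scaled values was not used.

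Circles whose summed count was 10 or more were fitted together with edgeR 4.0.16 (TMM, glmQLFit with the default dispersion, glmQLFTest, R 4.3.3), with Benjamini-Hochberg adjustment over all circles or host sums and a threshold of 0.05. Standard errors were derived from the F statistic. Long against shorter circles of a host were compared with diffSpliceDGE. Values per library were compared with exact permutation tests. DESeq2 1.42.0 was an alternative, as were other scalings and filters, the replicate block and leaving out each library. The main edgeR fits, DESeq2 and the long-against-shorter fit were run on simulated counts at a low and a high dispersion. Limits on ranking and false calls were set only for the low one. The other scalings, filters, replicate block, newer dispersion method and left-out-library fits were not simulated.

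The labels number replicates without saying that a number marks a shared day or culture. Deviations of same-numbered libraries correlated at r = 0.0177 over 317 circles, so the numbers were not taken to pair libraries. Nothing in the sources says how the biological replicates were grown, and p-values measure the spread between these libraries.

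Circles were named by rule: the 10 higher and 10 lower with the smallest p and no overlap between groups, the 10 most abundant, and the 5 with the most exons and at least 10 counts. Hosts were the 5 with the most long circles and the 5 with the smallest p in each direction, and in lists the 3 most abundant; some genes that these rules select are not reported here. RIF1, WAPL, XPO4, the circles with printed stretches and the shared ends were chosen after their values were seen. The criteria, lists and rules were chosen with earlier results of these data known. Flanking intron sequence was not analysed here.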

Additional observations from a re-analysis of the deposited data

How the results depend on the processing

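The count of long circles past the threshold, 0 in the main test, stayed at 0 with scaling by library totals, with DESeq2's size factors in edgeR, with the newer dispersion method, without mitochondrial circles and with other limits on exon number or isoforms. It was 52 in DESeq2, 70 when at least 2 libraries had to hold 5 counts, 23 when 40 in all were needed, 14 when none were filtered, 19 when only exonic circles were fitted and 71 with the replicate block, and it ranged from 0 to 311 when single libraries were left out. The count of host sums, 4 in the main test, was 4 with DESeq2's size factors, 0 with scaling by library totals, 19 in DESeq2, 12 and 14 under the same stricter filters, 36 when none were filtered, 1 with the newer dispersion method, 20 with the replicate block and from 0 to 264 with single libraries left out. The count of hosts whose long and shorter circles differed, 0 in the main test, stayed at 0 under the block, the other filters and the newer dispersion method, and ranged from 0 to 80 with single libraries left out. In all 3 tests the highest counts came from leaving out a control library, and a lone library was then assumed to vary like the other group. The difference in share of counts was -0.09 percentage points, became -1.003 of the counts of exonic circles with 1 gene and 1 isoform, and ranged from -0.56 to 0.38 with single libraries left out. The ratio of distinct circles ranged from 0.946 to 1.03 and the difference in length from -2.50 to 107.5 nt. With all libraries that difference was 52.5 nt, or 70.5 nt without the most abundant circle and 62.25 nt over distinct circles. Of the 20 circles, 10 host sums and 10 long-against-shorter differences named with a p-value, none changed sign under any alternative that could be fitted. The replicate block changed no direction among them. The causes were not tested. Depth was a limit, since 13019 of 14854 circles had fewer than 10 counts and were not tested. The control libraries gave a mean chi-square between them of 10.5 per circle against 2.64 for the knockdowns. Against knockdown replicates 1 and 2 it was 8.54 and 10.9 for control replicate 2 and 18.3 and 19.8 for control replicate 1. By this measure control replicate 2 was about as far from the knockdowns as from control replicate 1. Its log2 levels correlated at r = 0.609 and 0.605 with the knockdowns, lower than the 0.764 between the controls.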

Other observations

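Circles with 12 or more exons also lay outside the criteria. Those that named several genes numbered 4639, with 38539 counts. The most abundant, chosen after its values were seen, carried the names of SENP6, a SUMO protease, and a small nuclear RNA pseudogene inside it, and joined 12 exons on chromosome 6 from 75634707 to 75678927. It had 84 and 525 counts in the controls against 1748 and 2581 in the knockdowns, and a SENP6 circle of 14 exons with the same start had 16 and 101 against 296 and 411. Both knockdown libraries lay above both controls in each.

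Circles with several isoforms, all of 12 or more exons, numbered 1052, with 31247 counts. Their levels were 1443 and 2100 per 100000 in the controls against 2034 and 1790 in the knockdowns, so the groups overlapped. The most abundant were APPL1, an endosomal adaptor (376 and 760 counts against 192 and 238), KNTC1 (311 and 322 against 229 and 259) and TNKS2, a poly-ADP-ribosylating enzyme (85 and 386 against 255 and 312). Scaled by library totals, both knockdowns lay below both controls for APPL1. They lay above both controls for TNKS2 and, by a narrow margin, for KNTC1.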
